A study of Mus musculus with 2 samples.

Results

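The genes described here are the detected antisense RNA genes of G1E-ER4 cells, 167 of the 2062 genes of the GENCODE M21 class "antisense" that the deposited tables measure. They were chosen by their level in the same 2 libraries: a member had at least 1 TPM in both. TPM is a read count divided by transcript length and scaled to a fixed sum per library. The imprinted or X-linked genes Airn, Kcnq1ot1, Nespas and Tsix were left out by name. Detected members made up 8.1% of the antisense genes measured, while 24.3% of all 42462 matched genes passed the same threshold, and this share is a description because the threshold chose the members. The cells belong to G1E-ER4, an immortalized mouse erythroid line that lacks its own Gata1 and carries GATA-1 fused to an oestrogen receptor domain, in which estradiol lets the factor act. Both libraries came from cells given 10 nM 17beta-estradiol for 24 h, were made from poly(A) RNA, were read from a single end and are labelled biological replicates 1 and 2. They form 1 group of 1 cell line, and no untreated cells were analysed here, so no change with estradiol can be read and no p-value was computed.

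An antisense RNA is transcribed from the strand opposite to another gene, usually a coding gene, and so carries stretches that are the reverse complement of that gene's transcript. Some start beside the promoter of the coding gene and run away from it, some lie inside the gene, and some run into its end. A few are known to act on the neighbouring gene, but for most no function is known. A measurement that does not record strand cannot tell a read of such an RNA from a read of the coding transcript wherever exons of both lie on the same bases.

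The next stretches show that problem for 2 members whose exons lie wholly within exons of the opposite coding gene. Each pair gives the same 36 positions, the read length inferred from the tables, once as the antisense transcript has them and once as the coding transcript has them. The first pair is chr9:107300665-107300700 and the second chr8:70700045-70700080, both on GRCm38 (mm10) and both within coding sequence of the partner. Sequences are 5' to 3' from the GENCODE M21 transcripts, with the antisense transcript on the minus strand and its partner on the plus strand in both pairs.
Gm17041: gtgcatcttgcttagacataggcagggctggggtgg
Cish: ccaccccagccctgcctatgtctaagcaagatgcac
Gm11175: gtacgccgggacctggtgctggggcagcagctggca
Jund: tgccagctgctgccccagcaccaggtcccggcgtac
In each pair the lower sequence is the upper one read in reverse complement. Of the 444 distinct stretches of 36 bases in the Gm17041 transcript, 414 (93.2%) were found reversed in Cish transcripts. For Gm11175, 508 of 508 (100%) were found reversed in Jund.

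Start sites give the other sequence shown. In 31 members the start lies inside an opposite-strand coding gene, within 1000 bases of its start, and the member runs out past it. The RefSeq windows hold 250 bases before and 50 after a gene's start and are on GRCm38.p6, plus strand. Such a window was found for 77 of the 167 members, and for 58 of them its start lay within 250 bases of the GENCODE start. Capitals mark GGCGGG or its reverse CCCGCC, a GC-box sequence, searched on both strands. Phf2os1, antisense to the histone demethylase gene Phf2, has its window at chr13:48870705-48871004. 2610206C17Rik, beside Zfand6, has chr7:84689390-84689689. Gm10612, beside the corepressor gene Cbfa2t3, has chr8:122697609-122697908. Its start lies 1249 bases from that of Cbfa2t3, so it is not among the 31.
Phf2os1: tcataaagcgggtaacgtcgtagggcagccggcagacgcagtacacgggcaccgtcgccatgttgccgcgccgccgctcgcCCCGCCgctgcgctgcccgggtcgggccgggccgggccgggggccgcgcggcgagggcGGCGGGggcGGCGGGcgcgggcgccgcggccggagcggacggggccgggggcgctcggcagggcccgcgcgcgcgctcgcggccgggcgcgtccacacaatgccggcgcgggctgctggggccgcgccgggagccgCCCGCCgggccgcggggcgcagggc
2610206C17Rik: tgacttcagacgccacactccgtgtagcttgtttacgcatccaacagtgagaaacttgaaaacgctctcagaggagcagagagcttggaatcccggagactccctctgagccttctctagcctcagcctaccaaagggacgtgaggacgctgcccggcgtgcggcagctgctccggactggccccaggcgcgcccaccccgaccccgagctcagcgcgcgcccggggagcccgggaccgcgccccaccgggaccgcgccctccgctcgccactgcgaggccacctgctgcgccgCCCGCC
Gm10612: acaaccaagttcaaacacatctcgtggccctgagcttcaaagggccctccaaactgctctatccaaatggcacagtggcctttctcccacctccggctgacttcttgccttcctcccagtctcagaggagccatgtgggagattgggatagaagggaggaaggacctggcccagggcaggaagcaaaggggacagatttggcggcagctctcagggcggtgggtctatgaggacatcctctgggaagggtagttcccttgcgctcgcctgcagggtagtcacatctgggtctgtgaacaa
The Phf2os1 window holds 4 GC-box matches and 62 CpG dinucleotides, and 169 of its bases also lie in the RefSeq window of Phf2. The 2610206C17Rik window holds 1 match and 31 CpG, and that of Gm10612 holds 0 matches and 6 CpG. Among the 58 windows, the median CpG count was 23.5, against 22 in 7075 windows of detected coding genes and 7 in all 32851 windows. GGCGGG was in 56.9% of the member windows, 66.8% of the detected coding windows and 35.3% of all windows. The core letters bound by GATA factors were searched on both strands as the hexamer AGATAA with a first letter A or T and a last letter A or G. At least 1 such hexamer was in 13.8% of the member windows, 17.6% of the detected coding windows and 29.8% of all windows. The 8 members with such a match were Gm15545, Gm28857, Uckl1os, Il1bos, Zbtb11os1, 1700034H15Rik, Asb17os and Gm20522. CCAAT, on both strands, was in 34.5% of the member windows, 40.7% of the detected coding windows and 37.4% of all windows. TATAAA, also on both strands, was in 8.6%, 5.8% and 13.6% of the windows in the same 3 sets. A match is a description of letters and was not tested for binding.

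Replicate 1 held 20412826 expected counts, and replicate 2 held 18564086. Of the erythroid markers, Gata1, the gene restored as the fusion, had 2714 and 3180 TPM in replicates 1 and 2, and Klf1, an erythroid transcription factor, 411 and 413 TPM. Cd3e, Elane, Lyz2 and Mcpt8, markers of lymphoid, myeloid and basophil cells, had 0 counts in both libraries. The other markers of cells outside the erythroid line were not all at 0: the B cell gene Cd79a had 10 and 6 counts, the endothelial gene Kdr 7 and 6, and Mpo, Cpa3, Pecam1 and Col1a1 at most 4 counts in a library. Against this depth the antisense genes were scarce. The 167 members together held 0.118% of all TPM in each library, with expected counts that summed to 17999 (replicate 1) and 16361 (replicate 2). As bulk values, these cannot tell fewer expressing cells from less RNA per cell. The members' median was 2.58 TPM, with a range of 1.04 to 129 TPM, while the 8853 detected coding genes had a median of 20.8 TPM. Among the members, 113 averaged at least 2 TPM, 45 at least 5, 23 at least 10, 5 at least 50 and 1 at least 100 TPM. The 10 highest held 44.8% of the TPM of all members. The median expected count of a member was 46.1 (replicate 1) and 44.3 (replicate 2), and 13 members had fewer than 10 counts in a library.

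Gm17041, a gene of 2 exons at chr9:107300380-107301838 inside Cish, was the highest member. It had 136 TPM in replicate 1 and 121 in replicate 2, a mean of 129 ± 10.4 TPM (SD, n = 2 here and below). Cish, which encodes an inhibitor of cytokine receptor signalling through STAT5, had 140 and 133 TPM. The antisense gene was thus just below its partner in both libraries, with a log2 ratio of -0.09 ± 0.07. Gm20463 lies inside Rnf5, the gene of a membrane-bound ubiquitin ligase, and had 56.0 and 95.2 TPM, against 81.2 and 70.6 TPM for Rnf5. It was the lower of the pair in replicate 1 and the higher in replicate 2. Gm37335, inside the heparan sulfate sulfotransferase gene Hs6st1, had 66.2 and 72.9 TPM, against 52.3 and 57.7 TPM for Hs6st1. Gm37335 was the higher in both libraries by TPM, at a log2 ratio of 0.34 ± 0.0019. By expected counts, without division by length, Gm37335 was lower than Hs6st1 at a log2 ratio of -2.82.

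Gm11175, inside the AP-1 gene Jund, had 29.0 and 24.5 TPM, against 9.35 and 8.30 TPM for Jund. Gm11175 was the higher by TPM, with a log2 ratio of 1.59 ± 0.05, and the lower by expected counts, with -0.89. These 4 are among the 5 of the 10 highest members that have every exon base within exons of the opposite coding gene. Apart from reads across a splice junction, none of their reads is distinct from those of the partner by position alone.

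The other 5 of the 10 highest members share less. Gm15564, at chr16:35966752-35983230, shares no exon base with a coding gene and had 77.7 TPM in replicate 1 and 31.4 TPM in replicate 2. Its partner Parp9, of the ADP-ribosyltransferase family, had 1.94 and 2.29 TPM. Gm15564 also overlaps Kpna1, at 14.47 and 11.14 TPM, and against Kpna1 its log2 ratio was 1.95. 9130221H12Rik, inside the kinase gene Gsk3a, had 49.5 and 54.1 TPM, against 271 and 302 TPM for Gsk3a. Gm16754 runs into the end of Keap1, whose product targets the oxidative stress factor NRF2 for degradation. Gm16754 had 35.6 and 37.4 TPM, against 28.9 and 29.8 TPM for Keap1, and was the lower by expected counts, with a log2 ratio of -1.45. Rab10os had 32.3 and 32.8 TPM, against 34.6 and 31.7 TPM for the GTPase gene Rab10, so the order differed between the libraries. Tmem147os contains the sperm glycolysis gene Gapdhs and had 29.9 and 30.6 TPM, against 1.84 and 1.44 TPM for Gapdhs. The 10 highest members thus include genes above, below and in changing order with their partner.

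**Figure D1:**
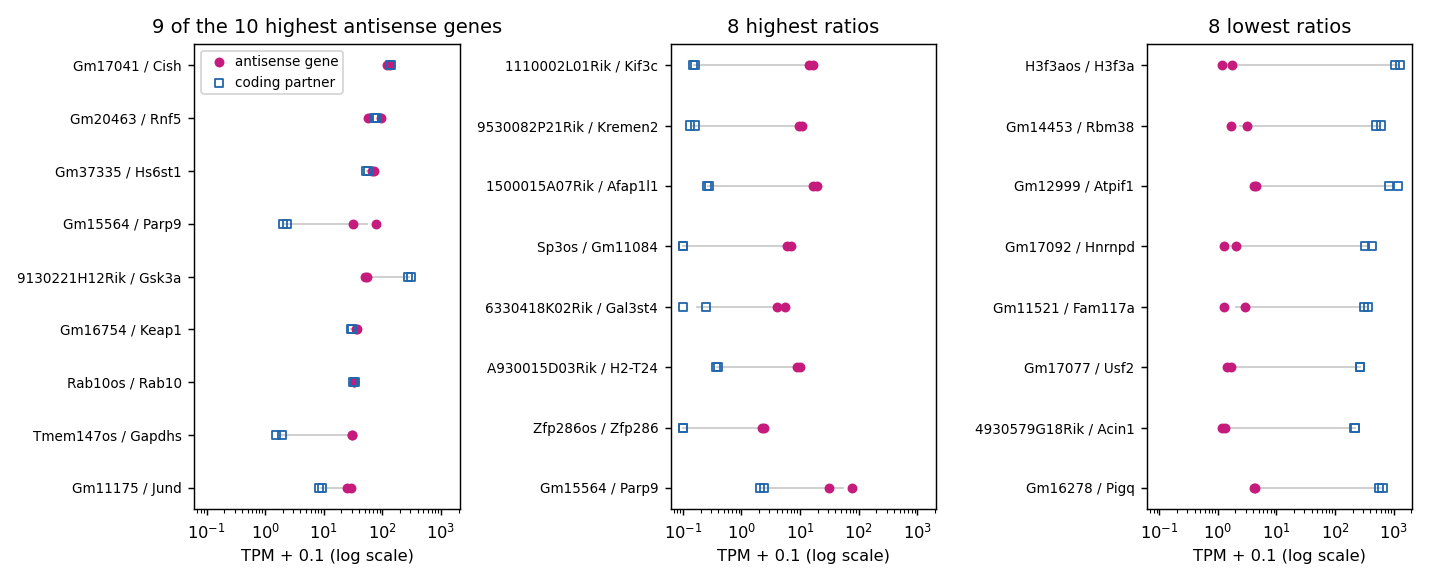
TPM + 0.1 (log scale) of antisense genes (filled circles) and their coding partners (open squares), 1 symbol per library, for 9 of the 10 highest members, the 8 with the highest ratio over the partner and the 8 with the lowest. Gm17041 and Cish lie on top of each other, 1110002L01Rik lies far above Kif3c, and H3f3aos lies far below H3f3a.

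A coding partner, defined as the opposite-strand coding gene that shares most of the gene span, was measured for 152 of the 167 members. For 14 members no coding gene overlapped on the other strand, and for Etohd2 the partner was not among the measured genes. The 152 members had 148 distinct partners, and 27 members overlapped more than 1 coding gene. The log2 ratio of antisense gene over partner, computed per library as log2 of TPM + 0.1 and averaged, had a median of -2.96, which puts the antisense gene 7.77-fold below. The medians within the libraries were -2.83 in replicate 1 and -2.92 in replicate 2. The lower quartile was -4.95, the upper quartile 0.14, and the whole range -9.67 to 6.62. The partners had a median of 32.4 TPM, and 128 of them were themselves at 1 TPM or more in both libraries.

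By TPM in both libraries, 107 of the 152 members were below their partner, 37 were above and 8 changed order. The 37 are 24.3% of all 152 pairs, whatever the level of the partner, and 21 of the 37 had a partner under 1 TPM in both libraries. Of 2097 detected coding genes, 61.9% were above their own opposite-strand coding neighbour, likewise whatever its level. Where both genes of the coding pair were at 1 TPM or more the share was 47.2%, which is not like the 24.3%. Members over 10-fold below their partner numbered 65 of the 152, beside 8.77% of the 2097 coding genes. Members over 10-fold above numbered 16 of the 152, beside 34.1% of the coding genes. Within 2-fold in both libraries were 20 of the 152 members, beside 20% of the coding genes. Members and coding genes entered through a threshold on their own TPM and not on the partner's. Detected coding genes had a median of 20.8 TPM, however, against 2.58 TPM for the members. In a coding pair with both genes at 1 TPM or more, 1 gene above mostly means the other below, which largely sets that share in advance. The shares of coding genes are thus a description and no yardstick for the members. Across the 152 pairs, the level of the antisense gene and that of its partner had a Pearson correlation of 0.0178 on the log2 scale and a Spearman correlation of -0.0226. These describe pairs that share their libraries and, where exons overlap, may share reads.

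**Figure D2:**
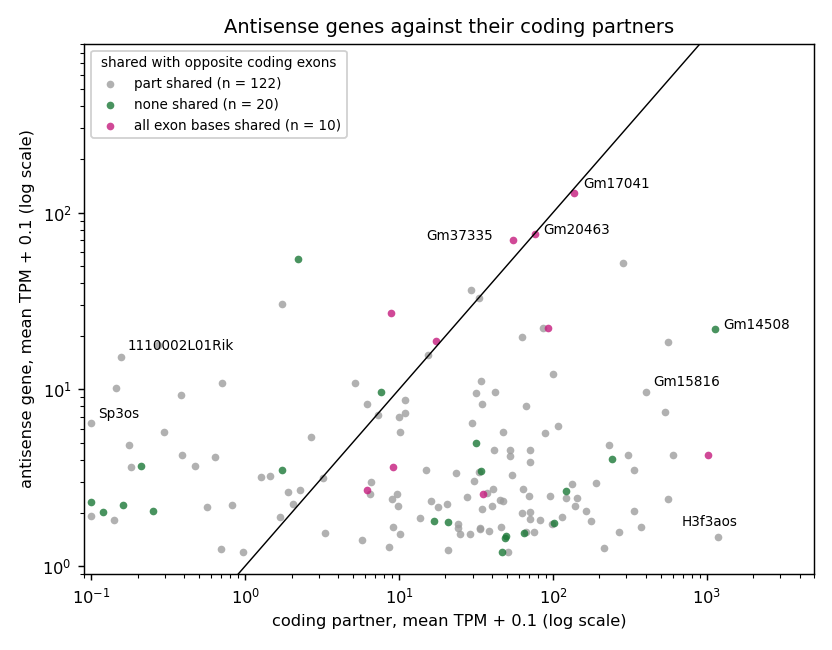
Mean TPM + 0.1 of the antisense gene (vertical, log scale) against that of its coding partner (horizontal, log scale) for 152 pairs, coloured by the share of exon bases in opposite-strand coding exons, with a line of equal level. Most points lie below the line, and the 10 members with all exon bases shared include the 3 highest points.

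Of the 8 members with the highest ratios, 7 had a partner at or below 0.30 TPM in both libraries, Gm15564 beside Parp9 being the exception. 1110002L01Rik had 14.1 and 16.3 TPM, against 0.05 and 0.06 TPM for Kif3c, a kinesin gene, the highest ratio of all at 6.62 ± 0.08. It also overlaps Asxl2, a gene of a chromatin regulator, which had 24.45 and 25.01 TPM, and against Asxl2 the log2 ratio was -0.70. 9530082P21Rik had 9.47 and 10.8 TPM on 475 and 491 whole counts, against 0.06 and 0.03 TPM for Kremen2, a receptor gene of the Wnt pathway. Against its other neighbour Flywch1, at 25.87 and 24.99 TPM, its ratio was -1.32. 1500015A07Rik had 16.6 and 18.9 TPM, against 0.16 and 0.18 TPM for Afap1l1, its only overlapping coding gene. Sp3os had 6.81 and 5.81 TPM, while Gm11084, its partner by span, was listed at 0 in both libraries. Against the transcription factor gene Sp3, which it also overlaps and which had 11.2 and 7.83 TPM, the ratio was -0.57.

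6330418K02Rik had 3.98 and 5.52 TPM, against 0 and 0.15 TPM for the sulfotransferase gene Gal3st4. A930015D03Rik had 8.73 and 9.69 TPM, against 0.30 and 0.27 TPM for H2-T24, of the nonclassical MHC class I genes, and a log2 ratio of -0.69 against H2-T22, at 13.5 and 16.4 TPM. H2-T genes belong to a multigene family, and how reads were divided among its members was not tested. Zfp286os had 2.11 and 2.32 TPM on 23 whole counts in each library, while the zinc finger gene Zfp286 was listed at 0. By the deposited posterior mean TPM, under which the partners listed at 0 have levels above 0, the ratio was lower at 1.84 for Sp3os, 1.53 for Zfp286os and 3.32 for 6330418K02Rik. Together with Gm15564 over Parp9, these are the 8 highest ratios, and 4 of the 8 turned below 0 when the partner was the overlapping coding gene with the highest TPM. Opposite-strand coding exons hold 90.3% of the exon bases of A930015D03Rik, 67.1% of those of 1110002L01Rik and 65.6% of those of 6330418K02Rik. The share is 12.2% for Sp3os, 6.49% for 1500015A07Rik, 4.13% for 9530082P21Rik and 0% for Zfp286os and Gm15564. In shared bases, reads cannot be told from coding reads by position alone. Among all 37 members above their partner, 21 had a partner under 1 TPM in both libraries, and the median partner level was 0.535 TPM beside a median member level of 3.59 TPM. The 107 members below had a median of 2.40 TPM, beside 48.6 TPM for their partners. The sets were split on this ratio, so the difference in partner level is a description.

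The lowest ratios belonged to members beside abundant transcripts. H3f3aos, which starts 167 bases from the histone H3.3 gene H3f3a, had 1.61 and 1.10 TPM, against 1300 and 1050 TPM for H3f3a, the lowest ratio at -9.67 ± 0.14. Its counts were 46.1 and 46.0, and transcript H3f3aos-201 held 59.5% of its level in replicate 1 and 100% in replicate 2, whose part in the difference in TPM was not tested. Gm14453 had 1.58 and 3.02 TPM, against 502 and 614 TPM for Rbm38, the gene of an RNA-binding splicing regulator. Gm12999 had 4.32 and 3.96 TPM, against 1192 and 832 TPM for Atpif1, whose product inhibits the mitochondrial ATP synthase. Gm17092 had 1.94 and 1.18 TPM, against 421 and 328 TPM for Hnrnpd, the gene of an RNA-binding protein that acts on mRNA stability. All 4 lay over 100-fold below their partner in both libraries.

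Gm11521 had 2.76 and 1.16 TPM on 13 and 5 whole counts, against 314 and 359 TPM for Fam117a. Gm17077 had 1.58 and 1.32 TPM on 6.18 and 4.72 counts, against 271 and 267 TPM for the transcription factor gene Usf2. 4930579G18Rik had 1.25 and 1.07 TPM, against 216 and 215 TPM for Acin1, the gene of a splicing-associated nuclear protein. Gm16278 had 4.03 and 4.22 TPM, against 568 and 643 TPM for Pigq, which acts in GPI anchor synthesis. Of these 8 members, 7 share room for a 36-base read with a coding exon, Gm11521 being the exception, so part of their exon length lies where partner reads fall.

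Whether a member's count was whole went with the room for reads it shares with a coding gene. An expected count is an estimate that need not be whole, and a count made only of reads with 1 place to go is whole. Exons of 133 members (79.6%) share at least 1 base with an opposite-strand coding exon, and for 126 of them the shared piece has room for a 36-base read. Counts were whole in both libraries, within 0.005, for 6 of these 126 members. Of the other 41 members, without such room, 39 had whole counts. Over all 10333 detected genes, 55.1% had whole counts. Among the undetected antisense genes that had 10 counts or more in each library, 1 of 53 with room and 11 of 12 without room had whole counts. The strand setting of the counting is not given in the sources used here, and whether the libraries kept strand was not tested beyond this.

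Levels and certainty moved with sharing. The 10 members with all exon bases shared had a median of 20.4 TPM, the 123 with part shared 2.63 TPM and the 34 with none shared 2.04 TPM. The deposited posterior standard deviation of the count, as a percent of the posterior mean, had a median of 7.86%, 4.97% and 0% in these 3 sets. It reached 39.1% for Gm17139, inside the ubiquitin ligase gene Arel1, with 3.77 and 1.17 TPM, and was 2.84% for Gm17041. Over the 122 members with fractional counts the median was 5.52%, and 17 were above 20%. This deviation describes the split of the reads by the authors' model and not the spread between cultures. In the 10 members with all bases shared, the median log2 ratio over the partner was -0.66, beside -3.06 in the 122 with part shared and a partner, and -3.32 in the 20 with none shared. These ratios are by TPM. By expected counts those of Gm17041, Gm20463, Gm37335 and Gm11175, all among the 10, were -1.84, -1.82, -2.82 and -0.89. Over all 152 pairs the median by expected counts was -4.31.

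**Figure D3:**
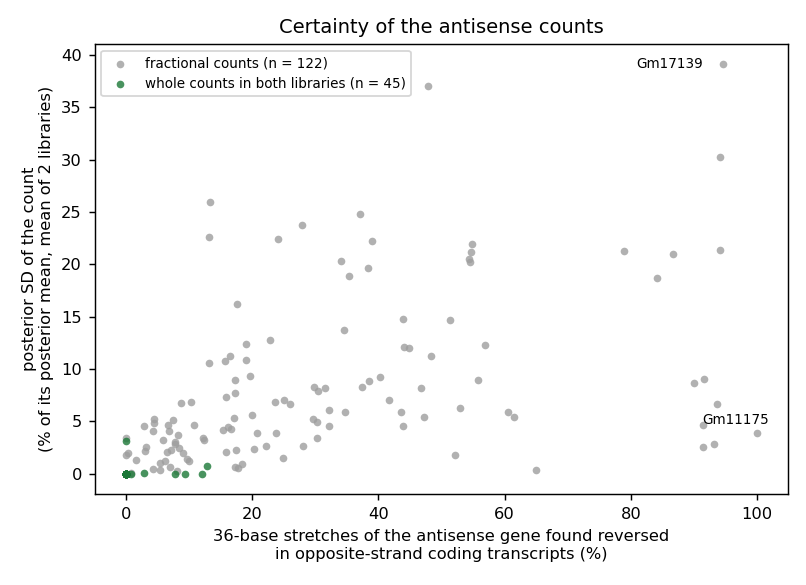
Posterior SD of the expected count as a percent of its posterior mean (vertical, mean of 2 libraries) against the percent of the member's distinct 36-base stretches that occur reversed in opposite-strand coding transcripts (horizontal), for 167 members. The 45 members with whole counts sit at the lower left, and Gm17139 is the highest point at 39.1%.

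The 45 members with whole counts are described here after their values were seen. Gm14508, at chr5:116009316-116016105, was the highest of them with 19.9 and 23.9 TPM on 276 and 302 counts. Its partner Prkab1, the gene of a subunit of the energy sensor AMPK, had 1097 and 1151 TPM, so the log2 ratio was -5.68 ± 0.14. As the map of exons shows, its second exon falls into an intron of Prkab1. Snhg9, a host gene of a small nucleolar RNA, had 22.7 and 14.3 TPM on 54 and 31 counts, against 533 and 582 TPM for the ribosomal protein gene Rps2. Appbp2os had 9.76 and 9.24 TPM, against 8.39 and 6.68 TPM for Appbp2, and was the higher in both libraries by TPM. By expected counts it was the lower, with 94 and 81 against 865 and 628 for Appbp2. The posterior standard deviation of Appbp2os was 3.13% of its posterior mean, so whole counts need not mean that no read was split. Tspan32os had 3.91 TPM in each library, against 205 and 279 TPM for the tetraspanin gene Tspan32. Il1bos had 4.04 and 4.08 TPM on 99 and 88 counts, against 0.24 and 0.83 TPM for Il1b, the gene of interleukin-1 beta. Rab26os had 5.29 and 1.88 TPM on 24 and 8 counts, against 0.22 and 0 TPM for Rab26.

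Among the 32 members with whole counts and a measured partner, 18 were below it, 13 above and 1 changed order. Their median log2 ratio was -2.99 and the median level of all 45 was 2.12 TPM. Members without any shared exon base stood above their partner in 8 of 20 cases, or 40%.

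**Figure D4:**
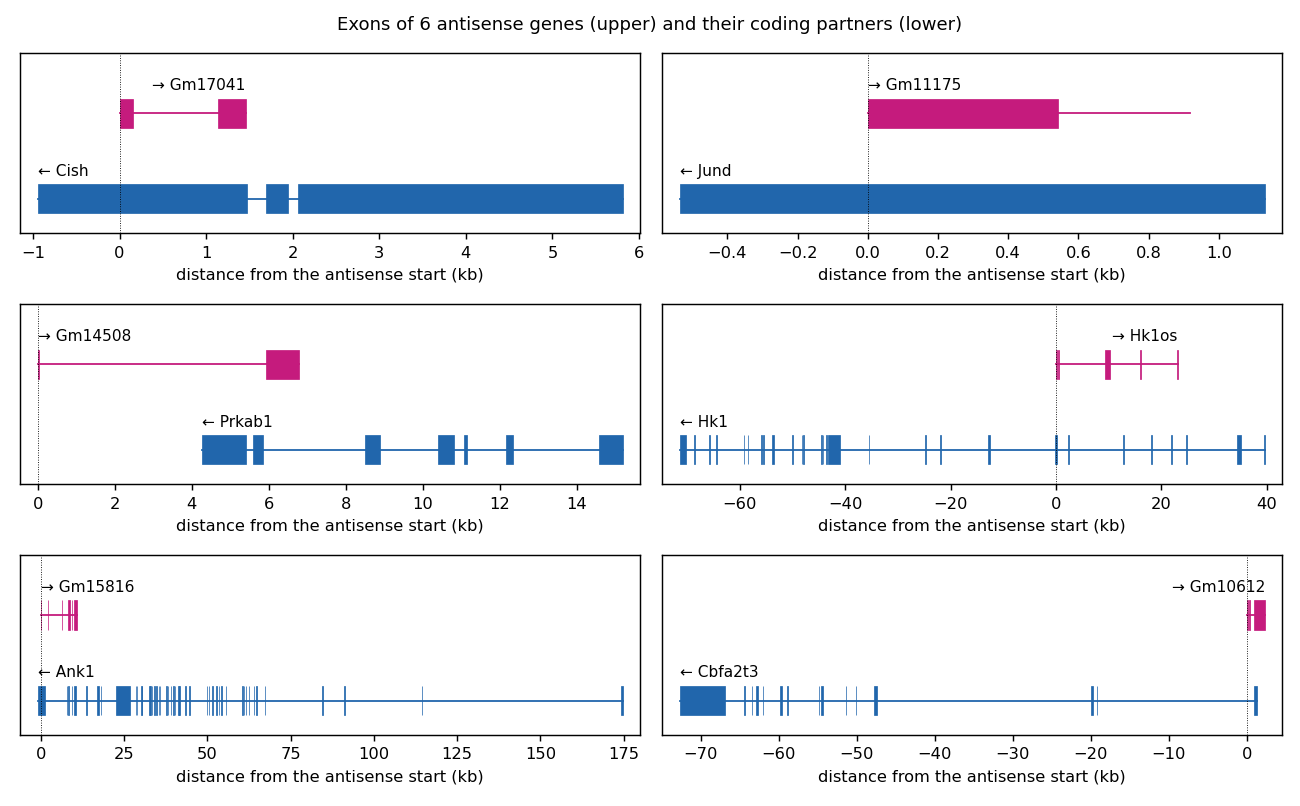
Exons (boxes) and gene spans (lines) of 6 antisense genes, upper, and their coding partners, lower, by distance from the antisense start (kb), with arrows for the direction of transcription. All exon bases of Gm17041 and Gm11175 fall in partner exons, the second exon of Gm14508 falls between exons of Prkab1 and its first lies outside that gene, and Gm15816 lies at the far end of Ank1.

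By position, 58 members lay inside the span of their partner, 47 started inside it and ran out past its start (head-to-head), 40 ran into its end (tail-to-tail) and 8 contained it. The median log2 ratio was -3.31 for the 57 inside members with a measured partner, -3.52 for the head-to-head, -1.85 for the tail-to-tail and 1.53 for the containing ones. Members above their partner in both libraries numbered 9 of 57, 9 of 47, 15 of 40 and 4 of 8 in the same order. Containing members had partners at a median of only 2.41 TPM, against 46.8 TPM for the partners of inside members. The median share of exon bases in coding exons was 34.1% for inside, 11.2% for head-to-head, 20.5% for tail-to-tail and 21.3% for containing members.

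Head-to-head pairs with starts within 1000 bases numbered 31 and had a median log2 ratio of -3.57. In 28 of them the antisense gene was below, and in Tug1, Appbp2os and 2810402E24Rik it was above, these pairs being named after their values were seen. Tug1, a long RNA conserved among mammals, had 11.9 and 9.58 TPM, against 0.64 and 0.57 TPM for Morc2a, the gene of a chromatin ATPase. 2810402E24Rik, 54 bases from the start of Usp54, had 2.80 and 2.37 TPM on 135 and 104 whole counts, against 2.02 and 2.35 TPM for Usp54, which was the higher by expected counts with 176 and 146. Phf2os1, 7 bases from the start of Phf2 by GENCODE, had 1.35 and 1.48 TPM on 10 counts in each library, against 27.6 and 29.8 TPM for Phf2. Its log2 ratio was -4.25 ± 0.0085. 0610040B10Rik, 9 bases from the start of the palmitoyltransferase gene Zdhhc4, had 4.40 and 4.48 TPM, against 50.1 and 54.0 TPM for Zdhhc4. 2610206C17Rik had 1.35 and 1.39 TPM on 35 and 33 whole counts, against 55.9 and 42.8 TPM for Zfand6.

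Of a list of 45 erythroid structure and haem genes, 3 were partners of 4 measured antisense genes, and 1 of these 4 was detected. For comparison, 1641 of 21474 measured coding genes (7.64%) were the partner of a measured antisense gene, and 8.1% of the antisense genes were detected. Gm15816, at chr8:23138794-23149585 inside Ank1, the gene of the red cell membrane anchor ankyrin-1, had 9.45 and 9.71 TPM, or 9.58 ± 0.18. Ank1 had 388 and 420 TPM, so the log2 ratio was -5.38 ± 0.05 and both libraries put the antisense gene far below. Of its exon bases 51.1% lie in Ank1 exons, and its counts of 251 and 235 were fractional. Gm12868 and Gm12867 beside the glucose transporter gene Slc2a1, and Gm27222 inside the mitochondrial iron importer gene Slc25a37, stayed at or below 0.64 TPM in both libraries.

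Of 56 blood cell regulators, 12 were partners of 14 measured antisense genes and 2 of these were detected, beside the same 7.64% and 8.1%. Gm10612, beside Cbfa2t3, whose product ETO2 is a corepressor in the GATA-1 and TAL1 complex, had 1.40 and 1.86 TPM, against 90.1 and 108 TPM for Cbfa2t3. Its log2 ratio was -5.85 ± 0.09. 4930538E20Rik, inside the globin switching repressor gene Bcl11a, had 1.19 and 2.24 TPM on 9.11 and 15.3 counts, against 85.0 and 78.9 TPM for Bcl11a. Gm12000, inside Ikzf1, the gene of the blood cell regulator Ikaros, missed the threshold with 0.94 and 0.92 TPM on 9 and 8 whole counts, against 131 and 140 TPM for Ikzf1. The antisense genes of Dnmt3a, Bach2, Meis1, Ets1 and Ikzf2 had 0 counts in both libraries, which allows up to 0.147 CPM (counts scaled to library depth) in replicate 1 and 0.162 CPM in replicate 2, for counting error only. These coding genes were themselves low, with 1.55 and 1.49 TPM for Meis1 and at most 0.52 TPM in a library for the others. Undetected antisense genes also lay beside regulators at higher levels. Gm12064, also inside Bcl11a, Gm26626 inside Runx1, Gm26577 inside Myb, Gm27201 inside Fli1 and Dnmt3bos beside Dnmt3b stayed at or below 0.25 TPM in both libraries. Runx1 had 52 and 54 TPM, Myb 14.0 and 13.9, Fli1 11.8 and 14.9, and Dnmt3b 3.0 and 2.9 TPM. Another list, of 41 names of noncoding RNAs, had 31 measured genes, of which 10 are of the antisense class and 0 were detected, beside the same 8.1%.

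Between the libraries, log2 levels of the members had a Pearson correlation of 0.938 and a Spearman correlation of 0.870 across the 167 genes, a description over genes chosen for being high in both. Members over 2-fold apart numbered 9, or 5.39%, while 2.31% of all 10333 detected genes were over 2-fold apart. Of the 9, 7 were higher in replicate 1, beside 1.55% of all detected genes, and 2 in replicate 2, beside 0.765%. The median absolute log2 difference was 0.36 in the 40 members under 20 counts on average, 0.34 in the 52 from 20 to 50, 0.22 in the 56 from 50 to 200 and 0.14 in the 19 with more. In the set with at least 50 counts on average, 2 of 75 members (2.67%) were over 2-fold apart, beside 1.1% of all genes with that depth. TPM was higher in replicate 2 for 100 members and in replicate 1 for 66, beside 49.8% of all detected genes higher in replicate 2.

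Gm15564 was the member most unlike between the libraries at 50 counts or more, with an expected count of 458 in replicate 1, and of 169 in replicate 2. The log2 difference was 1.30, and its counts were fractional, as in only 2 of the 34 members without a shared exon base. Its partner Parp9 had 1.94 TPM in replicate 1 and 2.29 in replicate 2, the higher value standing in the other library. Kpna1, which Gm15564 also overlaps, had 14.47 TPM in replicate 1 and 11.14 in replicate 2, the higher value standing in the same library. 4930539J05Rik, which starts 516 bases from the ubiquitin-conjugating enzyme gene Ube2d3, had 135 and 58 whole counts, 16.6 and 7.68 TPM, against 114 and 85.5 TPM for Ube2d3. Gm17178 had 25.9 and 13.3 TPM, against 54.7 and 70.6 TPM for Aspscr1. Gm17201 had 6.41 and 12.4 TPM, against 29.9 and 32.8 TPM for Ankrd52. Gt(ROSA)26Sor, the locus used in mouse genetics for ubiquitous expression, had 8.33 and 4.38 TPM, against 28.7 and 30.7 TPM for Thumpd3. With 1 value per library these differences have no replicate error of their own.

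**Figure D5:**
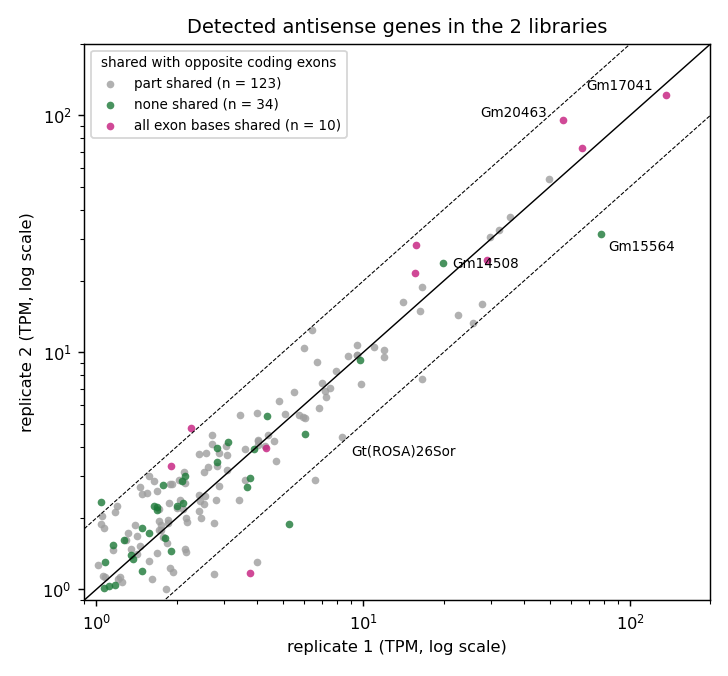
TPM in replicate 2 against TPM in replicate 1 (log scales) for the 167 members, coloured by the share of exon bases in opposite-strand coding exons, with lines of equal level and of 2-fold difference. Gm15564 lies outside the 2-fold lines, Gm20463 inside them.

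At the threshold, the members just inside were Gm12061 with 1.82 and 1.00 TPM, Gm28424 with 1.07 and 1.01, Gm16172 with 1.01 and 1.26 and B230369F24Rik with 1.11 and 1.03 TPM. Just outside stood Gm17111 with 0.99 and 1.64 TPM, Gm16861 with 0.99 and 1.08, Gm15642 with 0.97 and 1.56 and Gm12256 with 1.13 and 0.97 TPM. Gm12061 rested on 13.0 and 6.49 counts and Gm12256 on 7.45 and 5.84 counts, so a read more or less moves a gene across. Beside these 4, 43 antisense genes that were not detected reached 1 TPM in 1 library.

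Detected antisense genes stood beside more highly expressed partners than the 1893 undetected ones. The rule did not use the partner's level. In genes with room for a shared read, however, the TPM that the rule used may hold partner reads, so the comparison is a description. Of the 1893, 1220 had 0 counts in both libraries. The partner was at 1 TPM or more for 84.2% of 152 detected genes and for 34.7% of 1690 undetected ones, with medians of 32.4 and 0.045 TPM. Exon bases were shared with coding exons in 79.6% of the detected and 53.3% of the undetected genes. Exon lengths were close, with medians of 995 and 914 bases. Starts head-to-head within 1000 bases of a coding gene were found in 18.6% of the detected and 9.98% of the undetected genes. Genes of 1 exon made up 10.2% of the detected and 4.33% of the undetected genes.

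The share detected was highest where the partner was at 1 TPM or more and had room for a shared read. With a partner at 1 TPM or more and room for a shared read, 108 of 465 antisense genes (23.2%) were detected. With such a partner but without room, 20 of 248 (8.06%) were. With a partner under 1 TPM, 17 of 618 (2.75%) with room and 7 of 509 (1.38%) without room were detected. Among genes without room, the share was 1.39% with a partner averaging under 1 TPM, 3.41% from 1 to 10, 7.86% from 10 to 100 and 23.1% above 100 TPM, the last from 6 of 26 genes. Among genes with room the same 4 classes gave 2.61%, 17.7%, 22.0% and 45.1%. Reads of the partner and transcription of the antisense gene itself cannot be told apart in the genes with room, and the part of unspliced partner RNA in those without room was not tested.

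More than 1 counted transcript was listed for 72 members. In 19 of them a single transcript held at least 90% of the gene's level in each library, and in 14 the leading transcript differed between the libraries. Sp3os was led by Sp3os-201 with 91.9% in replicate 1 and by Sp3os-204 with 50.8% in replicate 2. Rab10os was led by Rab10os-204 in both, with 63.4% and 57.6%, and Gm16754 by a transcript with 64.8% and 65.7%. Tmem147os-201 held 94.8% and 96.0% of Tmem147os.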

How the data were processed

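Alignment and quantification were done for each library on mm10 with GENCODE M4, per the deposited manifests. Aligner, quantifier and strand setting: not given in the sources used here. Each gene has, per the file headers, an expected count, an estimated count that need not be whole, with a posterior mean and standard deviation, and a TPM value that the authors scaled to the same sum in each library. The deposited transcript tables give the percent that each transcript holds of its gene. Reads of 36 bases were inferred from length minus effective length.

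Gene classes, exons and partners came from GENCODE M21 on the same assembly, of which 311 of the members' 313 counted transcripts are part and 294 have the same length. Ratios are log2 of TPM plus 0.1. With 1 group of 2 libraries no test was run. Labels call the libraries biological replicates, and nothing says how the cultures were separated. Promoter windows are from RefSeq. TMM scaling used edgeR 4.0.16 in R 4.3.3 on rounded counts. All other steps used Python 3.11.15 with pandas and SciPy. Of these, the overlap of intervals and the 2-fold call between replicates were tested on simulated data.

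The members and lists were chosen with earlier results of these data known. Named genes are the 10 highest members, the 8 highest and 8 lowest ratios over the partner, the 5 most different between replicates at 50 counts or more, 4 genes on each side of the threshold, members beside a listed partner, and the 3 with most TPM on unshared transcripts; others were chosen after their values were seen. Alternatives were other thresholds, pseudocounts, counts in place of TPM, posterior mean TPM, another partner, stricter counts, only unshared members, and each library left out. The values of 1 named member with its partner, and of 1 marker, are not reported here.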

Additional observations from a re-analysis of the deposited data

How the results depend on the processing

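No paired analysis was possible because the 2 libraries form 1 group. The number of detected antisense genes was 97 at 2 TPM, and 190 to 191 when 1 library alone was used. The median log2 ratio of antisense gene over partner was below 0 throughout: it was -2.57 with a pseudocount of 1 TPM, -4.31 by expected counts, -2.88 by posterior mean TPM, -3.26 with the highest overlapping partner, -3.32 in members with no shared exon base, -2.79 in members with at least 10 counts, and -2.92 to -2.83 with 1 library left out. Members above their partner numbered 8 of 20 among those with no shared exon base 40 to 42 of 152 with 1 library, and, of the 152, 27 by expected counts, 29 with the highest overlapping partner and 35 by posterior mean TPM. The correlation of member and partner levels was 0.0661 with the highest partner, 0.0746 without shared bases and 0.00469 to 0.0306 with 1 library. Members over 2-fold apart between libraries numbered 2 at 50 counts or more and 5 with a pseudocount of 1 TPM. The share with shared exon bases was 38.3% where at least 25% of the bases had to be shared.

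Of 35 named ratios under 6 alternatives, 143 values moved by no more than 1 SD and 60 moved further with the same sign. Another 7, all of members above or below their partner in both libraries, changed sign. Among the 143, Gm20463 went from -0.05 to 0.43 without replicate 1. Rab10os went from -0.02 to 0.05 without replicate 1 and to 0.0034 by posterior mean TPM. Both members changed order with their partner between the libraries. Leaving out 1 of 2 libraries cannot move a ratio by more than 1 SD, so 35 of 35 stayed within it for either library by construction. Within 1 SD were 2 of 35 by expected counts and 15 with a pseudocount of 1 TPM. By posterior mean TPM 26 were, and 30 with the highest overlapping partner. By expected counts the log2 ratio of Gm37335 was -2.82, of Gm16754 -1.45 and of Gm11175 -0.89. With the highest overlapping partner that of 9530082P21Rik was -1.32, of 1110002L01Rik -0.70, of A930015D03Rik -0.69 and of Sp3os -0.57. These follow from dividing by length or not and from which neighbour is the partner. Precision is limited by 2 libraries and by counts: 13 members had fewer than 10 counts in a library. SDs over 2 values are rough, and counting limits do not cover how reads were split between strands.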
